A study of Mus musculus with 16 samples.

Results

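Single-strand DNA breaks were examined at Tet1, Tet2 and Tet3, the 3 mouse genes for the TET (ten-eleven translocation) dioxygenases. A peak belonged to a gene when it shared at least 1 bp with the gene body or the 5 kb on either side, in the GENCODE M21 annotation of mm10. The 3 genes are 3 of 21911 protein-coding genes on chromosomes 1 to 19, X and Y. Together they held 44 of the 103545 peaks in the 4 deposited peak lists, and these 44 peaks merged into 30 regions.

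TET enzymes oxidise 5-methylcytosine to 5-hydroxymethylcytosine and further to 5-formylcytosine and 5-carboxylcytosine, using iron and 2-oxoglutarate. Thymine DNA glycosylase (TDG) cuts out the last 2 bases, and base excision repair then opens the strand and fills it, so that a single-strand break is an intermediate of active demethylation. TET1 and TET3 carry a CXXC domain that binds CpG-rich DNA, whereas TET2 lacks it. In mouse embryonic stem cells Tet1 and Tet2 are known as the main expressed members, and Tet3 is best known from the egg and from later differentiation.

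The cells were C57BL/6JRj mouse embryonic stem cells in 2i and LIF without serum, a culture that keeps the naive state. Cells were labelled wild type or KO and Tdg-depleted, and each genotype received DMSO or 5 nM talazoparib, an inhibitor of PARP enzymes, for 24 h. The growth protocol, given in the same words for all samples, describes excision of a Tdg minigene with 4-hydroxytamoxifen and does not say whether the wild-type cells were given the drug too. No source used here states the DMSO exposure time. In SSB-seq, E. coli DNA polymerase I extends free 3′ ends at nicks with digoxigenin-dUTP and chain-terminating nucleotides, and an antibody pulls the labelled fragments down (IP). Each of the 4 conditions had 3 IP libraries and 1 input library, 16 libraries in all.

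The lists held 28559 peaks in wild-type DMSO, 15544 in wild-type talazoparib, 35459 in Tdg-depleted DMSO and 23983 in Tdg-depleted talazoparib. Pooled IP depth ran from 66.4 to 87.0 M tags and input depth from 24.5 to 38.1 M tags. Every list holds 1 pooled value per peak, so no spread between replicates is known, nothing below was tested, and intervals cover counting error only. The 2 genotypes were sequenced on different flow cells, so genotype and sequencing run cannot be told apart. A region absent from a list has no value there, which is not a value of 0. Peak counts are given beside the list lengths because a longer list holds more peaks anywhere.

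Tet1 (ENSMUSG00000047146.17) lies on the minus strand of chromosome 10 at 62804570 to 62908996 and spans 104 kb. Tet2 (ENSMUSG00000040943.12) lies on the minus strand of chromosome 3 at 133463679 to 133545139 and spans 81.5 kb. Tet3 (ENSMUSG00000034832.15) lies on the minus strand of chromosome 6 at 83362373 to 83459084 and spans 96.7 kb. GENCODE lists 10 transcripts for Tet1, 10 for Tet2 and 5 for Tet3, and several begin well inside the gene. Regions are numbered below from the 5′ end of each gene.

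The sequences that follow show bases within the region of Tet2 listed in all 4 conditions, an intron site of Tet2 listed in 3, and a Tet1 and a Tet3 region listed in DMSO of both genotypes. They are written 5′ to 3′ on the strand of the gene (minus strand of mm10, from the GRCm38.p6 genome), in lower case with each CpG dinucleotide in capitals, because CpG is the substrate context of TET enzymes.
Tet2 region 1, chr3:133544844-133545041: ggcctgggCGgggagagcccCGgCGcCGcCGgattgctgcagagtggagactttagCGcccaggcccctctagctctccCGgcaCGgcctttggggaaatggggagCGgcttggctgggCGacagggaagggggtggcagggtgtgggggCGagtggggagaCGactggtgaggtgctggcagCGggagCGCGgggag
Tet2 region 5, chr3:133524510-133524809: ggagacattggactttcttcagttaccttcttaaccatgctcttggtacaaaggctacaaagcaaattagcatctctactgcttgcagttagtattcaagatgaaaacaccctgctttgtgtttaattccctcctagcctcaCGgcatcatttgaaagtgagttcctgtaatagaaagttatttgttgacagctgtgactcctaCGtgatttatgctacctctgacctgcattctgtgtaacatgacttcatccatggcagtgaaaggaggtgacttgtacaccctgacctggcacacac
Tet1 region 6, chr10:62892987-62893286: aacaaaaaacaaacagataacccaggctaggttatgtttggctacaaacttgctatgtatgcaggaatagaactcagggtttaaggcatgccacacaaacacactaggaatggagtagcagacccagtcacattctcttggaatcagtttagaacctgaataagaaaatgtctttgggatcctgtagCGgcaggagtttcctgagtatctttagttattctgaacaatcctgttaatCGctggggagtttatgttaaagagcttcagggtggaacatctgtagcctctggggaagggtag
Tet3 region 3, chr6:83441679-83441978: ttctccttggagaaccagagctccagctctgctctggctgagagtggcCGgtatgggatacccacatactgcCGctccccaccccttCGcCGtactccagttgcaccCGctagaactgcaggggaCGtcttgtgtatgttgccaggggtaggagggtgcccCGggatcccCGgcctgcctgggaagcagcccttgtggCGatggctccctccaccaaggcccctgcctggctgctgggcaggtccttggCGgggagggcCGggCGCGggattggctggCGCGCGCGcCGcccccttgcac
The Tet2 sequence near the gene start, which includes no annotated start, holds 15 CpG dinucleotides in 198 bases. The Tet3 sequence holds 18 in 300 bases. The Tet2 intron and the Tet1 sequence each hold 2 in 300 bases. Soft-masked repeat makes up 7.0% of the Tet1 sequence and 0 of the Tet2 and Tet3 sequences. Regions listed in several conditions thus included both CpG-dense and CpG-poor bases.

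Tet1 held the most peaks and Tet3 the fewest. Tet1 had 6 peaks in wild-type DMSO, 2 in wild-type talazoparib, 10 in Tdg-depleted DMSO and 6 in Tdg-depleted talazoparib. Tet2 had 4, 2, 5 and 2 in the same order, and Tet3 had 2, 1, 2 and 2. Each gene therefore had a peak in all 4 lists. Among all protein-coding genes, 60.9% had a peak in wild-type DMSO, 48.8% in wild-type talazoparib, 66.7% in Tdg-depleted DMSO and 58.9% in Tdg-depleted talazoparib. Among the 2308 genes whose window, flanks included, measured 75 to 150 kb, as those of the Tet genes do, the shares were 76.1%, 63.8%, 82.1% and 74.2%. A peak in a gene of this size is thus common.

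**Figure D1:**
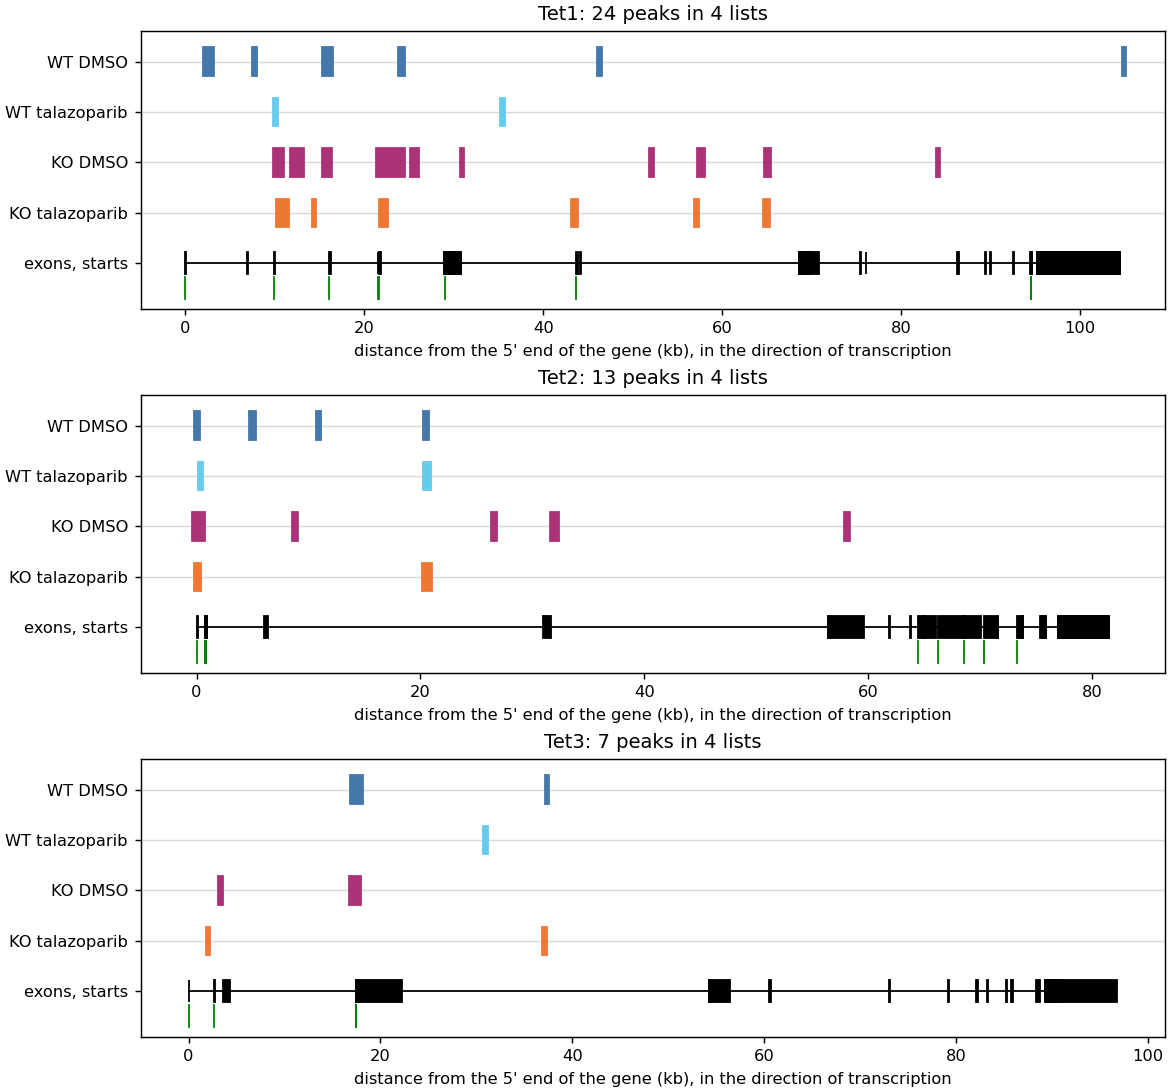
Position of the 44 Tet peaks by list (rows; WT, wild type; KO, Tdg-depleted) against distance in kb from the 5′ end of each gene in the direction of transcription. Black boxes are exons of any transcript and green ticks annotated transcript starts; the peaks of Tet1 crowd into its 5′ part, and 1 Tet1 peak lies past the 3′ end.

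Per length, Tet1 carried 5.24, 1.75, 8.74 and 5.24 peaks per 100 kb of window in wild-type DMSO, wild-type talazoparib, Tdg-depleted DMSO and Tdg-depleted talazoparib. Tet2 carried 4.37, 2.19, 5.47 and 2.19. Tet3 carried 1.87, 0.937, 1.87 and 1.87. The windows of all protein-coding genes together carried 2.16, 1.25, 2.70 and 1.87 in the same order. Tet1 lay above these values in all 4 lists, Tet2 did too, and Tet3 lay below them in both wild-type lists and in Tdg-depleted DMSO and at the same value in Tdg-depleted talazoparib. The median gene of the 75 to 150 kb class held 1, 1, 2 and 1 peaks, with upper quartiles of 3, 2, 3 and 2 and highest counts of 20, 8, 23 and 13. Tet1 was above the upper quartile in 3 of the 4 lists, and Tet2 was above it in the 2 DMSO lists. Tet3 stayed within the quartiles in all 4.

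With talazoparib, fewer Tet peaks were listed in both genotypes, as was the case for peaks genome-wide. In wild-type cells the Tet genes went from 12 peaks in DMSO to 5 in talazoparib, a ratio of 0.417, beside 0.544 for all peaks. In Tdg-depleted cells they went from 17 to 10, a ratio of 0.588, beside 0.676 for all peaks. By gene, the wild-type ratios were 0.333 for Tet1, 0.5 for Tet2 and 0.5 for Tet3, and the Tdg-depleted ratios were 0.6, 0.4 and 1.0. The order depended on which peaks were counted. At a fold over input of at least 6, wild type had 3 peaks in DMSO and 4 in talazoparib, and Tdg-depleted cells had 10 and 3. In lists cut to the same number of best-scoring peaks, 15526 each, wild type had 5 and 5, and Tdg-depleted cells had 5 in DMSO and 8 in talazoparib. With at least 3 input tags required, wild type had 10 and 0, and Tdg-depleted cells had 8 and 8. That cutoff is not equally strict across lists. Input depth was 38.1 and 24.5 M tags in wild type and 24.8 and 28.3 M in Tdg-depleted cells, DMSO first. The median of all peaks was 3.5 and 2.0 input tags in wild type and 3.0 and 4.0 in Tdg-depleted cells.

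Most Tet regions were listed in 1 condition, although 23 of the 44 peaks lay in a region listed in another condition too. Of the 30 regions, 21 (70.0%) were listed in 1 condition only, beside 61.6% of the 60802 merged regions of the genome. Tet2 region 1 was the only Tet region in all 4 lists, which is 3.33% of the Tet regions beside 9.47% genome-wide. A further 3 regions (10.0%) were in 3 lists and 5 (16.7%) in 2 lists, beside 11.2% and 17.7% genome-wide. The regions of a single list fell to Tdg-depleted DMSO 10 times, wild-type DMSO 6 times, Tdg-depleted talazoparib 3 times and wild-type talazoparib 2 times, in the order of the list lengths.

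Between treatments, 2 of the 12 wild-type DMSO peaks (16.7%) overlapped a wild-type talazoparib peak, where 28.4% of all peaks did, and 2 of the 5 talazoparib peaks (40%) overlapped a DMSO peak, where 52.4% did. In Tdg-depleted cells 5 of 17 DMSO peaks (29.4%) overlapped a talazoparib peak beside 39.4% of all peaks, and 5 of 10 talazoparib peaks (50.0%) overlapped a DMSO peak beside 59.0%. Between genotypes in DMSO, 4 of 12 wild-type peaks (33.3%) overlapped a Tdg-depleted peak beside 52.1%, and 4 of 17 Tdg-depleted peaks (23.5%) overlapped a wild-type peak beside 41.4%. In talazoparib the counts were 3 of 5 (60.0%) beside 50.3%, and 3 of 10 (30%) beside 32.5%. The Tet shares lay below the genome's in 7 of these 8 directions, on 2 to 5 overlapping peaks each, and the differences were not tested. The 8 directions are 4 pairs of lists, each read both ways over the same overlaps, so they are not independent. Both wild-type overlaps were at Tet2: none of the 6 Tet1 peaks of wild-type DMSO lay under a wild-type talazoparib peak.

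Tet1 encodes the CXXC-bearing TET protein of naive stem cells. Of its 24 peaks, 14 lay 2.59 to 30.9 kb from the 5′ end, a stretch that holds 5 of its transcript starts. Region 7 was the widest of all Tet peaks. As merged, it covers the starts of transcripts Tet1-207 and Tet1-210. It was listed in wild-type DMSO (chr10:62884414-62885216), Tdg-depleted DMSO (chr10:62884392-62887660) and Tdg-depleted talazoparib (chr10:62886359-62887387). Its normalized tag count, the IP tags in the peak per 10000000 IP tags, was 5.86 (95% exact Poisson interval 4.36 to 7.71), 34.6 (30.4 to 39.3) and 13 (10.4 to 16.1), over 802, 3268 and 1028 bp. These counts rise with the width of the peak, so density was used to set peaks of different width side by side. Density is the tags per bp of the peak divided by the mean of the same pooled IP over the genome. Each density still covers its own peak span, so peaks of unlike width do not measure the same bases. At region 7 the density was 1.93 times the genome mean (1.44 to 2.54) in wild-type DMSO, 2.80 (2.46 to 3.18) in Tdg-depleted DMSO and 3.35 (2.68 to 4.13) in Tdg-depleted talazoparib. Input density, the same measure taken on the input of the condition, was 0.476, 0.668 and 0.727 in that order. The fold over input was 4.06, 4.19 and 4.61, so the peaks differed less over input than in IP density. The median density over all peaks of these lists was 2.00, 2.53 and 2.91. The wild-type peak and the Tdg-depleted talazoparib peak share no base: the Tdg-depleted DMSO peak bridges them. Only the bridging peak covers both starts. The Tdg-depleted talazoparib peak covers that of Tet1-207, and the wild-type peak covers neither. Genome-wide, 6.29% of merged regions were in these same 3 lists. The Tdg-depleted talazoparib peak held 6.32 CpG per 100 bp, and the wild-type peak 0.998.

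Tet1 region 3, at or near the start of Tet1-206, was listed in every condition but wild-type DMSO, as were 1.96% of merged regions genome-wide. Its density was 2.05 (1.41 to 2.89) in wild-type talazoparib, 3.87 (3.19 to 4.65) in Tdg-depleted DMSO and 2.3 (1.83 to 2.86) in Tdg-depleted talazoparib, over peaks of 500, 1121 and 1413 bp. The Tdg-depleted DMSO interval lay above both others, and those of the talazoparib lists overlapped. Only 222 bp were common to the 3 peaks. The peaks carried 1.5, 7.5 and 4.5 input tags, and 78.4%, 51.5% and 47.6% of their bases are soft-masked repeat. Input density was 0.324, 0.713 and 0.298, and the fold over input was 6.33, 5.44 and 7.72. The Tdg-depleted DMSO peak, highest in IP density, thus had the lowest fold of the 3 peaks. The median density over all peaks of these lists was 2.11, 2.53 and 2.91.

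Tet1 region 6, at the start of Tet1-209, was listed in DMSO of both genotypes and in neither talazoparib list. The same held for 6.21% of merged regions genome-wide. The wild-type peak (chr10:62892546-62893684) had a density of 1.87 (1.46 to 2.37) and the Tdg-depleted peak (chr10:62892562-62893729) 2.93 (2.35 to 3.6), with 6.0 and 4.5 input tags. The 2 peaks nearly coincide, and their intervals overlap slightly. A small nuclear RNA gene, Gm26479, is annotated within the region.

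Tet1 regions 14 and 15, in introns 57.6 and 65.0 kb from the 5′ end by their DMSO peaks, were listed in both Tdg-depleted conditions and in no wild-type list. The same held for 5.32% of merged regions genome-wide. Region 14 had a density of 1.98 (1.45 to 2.65) in DMSO and 2.43 (1.65 to 3.46) in talazoparib, and its peaks shared 152 bp. Region 15 had 2.32 (1.70 to 3.09) and 2.23 (1.62 to 3.0), and its peaks shared 720 bp. The densities of the 2 treatments lay within each other's intervals at both regions. The fold over input at region 15 was 11.26 in DMSO and 4.64 in talazoparib, on 1.5 and 4.0 input tags.

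The other 12 Tet1 regions were each in 1 list. In wild-type DMSO these were regions 1, 2, 12 and 17, with densities of 1.56, 1.89, 1.64 and 1.71. Region 12 is 80.8% repeat. Region 17 (chr10:62803852-62804352) lies past the 3′ end of the gene, so it is a Tet1 peak only through the 5 kb flank. In wild-type talazoparib the single one was region 10, with a density of 2.56 (1.83 to 3.48) on 2.0 input tags. Tdg-depleted DMSO held regions 4, 8, 9, 13 and 16 with densities of 1.95 to 2.41, and Tdg-depleted talazoparib held region 5 at 1.95 and region 11, at the start of Tet1-202, at 3.26 (2.51 to 4.15). No single-list region of Tet1 reached the density of the Tdg-depleted DMSO peak of region 3.

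Tet2 encodes the family member without a CXXC domain. Its region 1 lies at the gene's 5′ end, opposite the antisense gene Gm42567. As merged, it spans the starts of Tet2-201, Tet2-204 and Tet2-205, but only the Tdg-depleted DMSO peak covers all of them. The wild-type DMSO and Tdg-depleted talazoparib peaks cover that of Tet2-205 only, and the wild-type talazoparib peak covers none. The peak was at chr3:133544843-133545343 in wild-type DMSO, chr3:133544541-133545041 in wild-type talazoparib, chr3:133544367-133545587 in Tdg-depleted DMSO and chr3:133544739-133545374 in Tdg-depleted talazoparib. The normalized tag count was 4.31 (3.04 to 5.93), 4.77 (3.41 to 6.5), 14.7 (12.0 to 17.8) and 11.4 (8.95 to 14.2) in that order. The density was 2.28 (1.61 to 3.14), 2.53 (1.80 to 3.44), 3.19 (2.60 to 3.87) and 4.75 (3.74 to 5.95). The Tdg-depleted talazoparib interval lay above both wild-type intervals, and the Tdg-depleted DMSO interval overlapped each of the others. Density was also higher in the Tdg-depleted lists as a whole, with a median peak at 2.53 and 2.91 beside 2.00 and 2.11 in wild type. Input tags at this site were also higher, at 8.5 and 8.0 in Tdg-depleted cells beside 4.0 and 1.5 in wild type, and their part in the difference was not tested. The 198 bp common to the 4 peaks are those printed above, and the 4 peaks held 6.20, 12.2, 9.43 and 6.93 CpG per 100 bp.

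Tet2 region 5, in an intron 20.6 kb from the 5′ end, was listed in every condition but Tdg-depleted DMSO, as were 0.776% of merged regions genome-wide. Its density was 2.07 (1.43 to 2.89) in wild-type DMSO, 1.45 (0.985 to 2.06) in wild-type talazoparib and 2.61 (1.99 to 3.37) in Tdg-depleted talazoparib. The peaks shared 490 bp, and the wild-type intervals overlapped. The wild-type talazoparib peak rested on 0.5 input tags, which gave it a fold of 18.12 although its density was the lowest at this region. Its sequence, printed above, is CpG-poor, in contrast to region 1.

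The other 6 Tet2 regions were each in 1 DMSO list, regions 2 and 4 in wild type with densities of 1.70 and 2.04, and regions 3, 6, 7 and 8 in Tdg-depleted cells with 1.99 to 2.61. Region 7 is 80.6% repeat. Region 8 (chr3:133486807-133487307) was the only Tet peak centred on a coding exon, with a density of 2.11 and a fold of 19.76 on 0.5 input tags. The nearest peak outside the window was 6.52 kb beyond the 5′ end of the gene, in Tdg-depleted DMSO, with a normalized tag count of 4.05.

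Tet3 encodes the other CXXC-bearing member. Its region 3 lies over the starts of Tet3-201, Tet3-202 and Tet3-205. It also overlaps B230319C09Rik on the opposite strand, and was listed in DMSO of both genotypes. The density was 2.26 (1.83 to 2.76) at chr6:83440931-83442221 in wild type and 2.96 (2.38 to 3.65) at chr6:83441164-83442317 in Tdg-depleted cells. The 2 peaks shared 1057 bp, and their intervals overlapped. Neither talazoparib list held a peak there, and 6.21% of merged regions genome-wide were likewise in the 2 DMSO lists only.

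Tet3 region 5, in an intron, was listed in wild-type DMSO (chr6:83421474-83421974) and Tdg-depleted talazoparib (chr6:83421709-83422209), sharing 265 bp. The normalized tag count was 3.85 (2.66 to 5.39) and 7.45 (5.52 to 9.84), and the density 2.04 (1.41 to 2.86) and 3.94 (2.92 to 5.21), on 3.5 and 4.0 input tags. The density intervals did not overlap. Input density was 0.486 and 0.748, and the fold over input was 4.19 and 5.28. The lists differ in the same direction as a whole: the median peak had a normalized tag count of 4.83 and a density of 2.00 in wild-type DMSO, and 7.45 and 2.91 in Tdg-depleted talazoparib. Of merged regions genome-wide, 2.46% were in these 2 lists only, as region 5 was. Near the 5′-most starts, region 1 was listed in Tdg-depleted talazoparib with a density of 3.51 (2.55 to 4.71) and region 2 in Tdg-depleted DMSO with 3.10 (2.22 to 4.22). Both are close to the start of Tet3-203, 0.654 kb upstream and 0.622 kb downstream, and hold 8.8 and 4.8 CpG per 100 bp. Region 4, in wild-type talazoparib, had the lowest density of all Tet peaks, 1.36 (0.848 to 2.07), on 0.5 input tags.

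**Figure D2:**
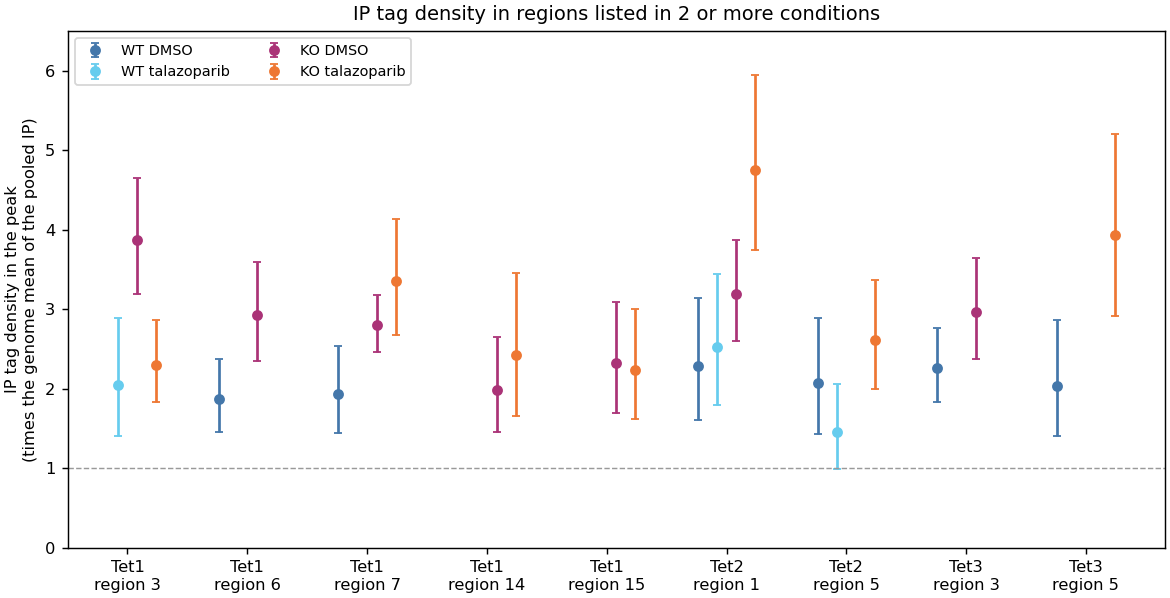
IP tag density of the 9 Tet regions listed in 2 or more conditions, in multiples of the genome-wide mean of that IP (dashed line at 1), with exact Poisson 95% intervals for counting error. Each point covers its own peak span and is not corrected for input. The highest value is the 4.75 of Tet2 region 1 in Tdg-depleted talazoparib, a peak with a fold over input of 4.02.

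Over all 44 peaks, density ran from 1.36 to 4.75 times the genome mean with a median of 2.26. The Tet medians by list were 1.91, 2.05, 2.40 and 2.93, beside 2.00, 2.11, 2.53 and 2.91 for all peaks, so the Tet peaks were of ordinary height in each list. Of the 44, 21 were exactly 500 bp wide, and the median width was 630 bp.

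The fold over input, the authors' ratio of IP tags scaled to the input total over input tags, rested on few input tags. Input tags ran from 0.5 to 20.5 per peak with a median of 3.50, and 18 of the 44 peaks had fewer than 3, among them all 5 of wild-type talazoparib and 9 of 17 in Tdg-depleted DMSO. The lowest fold in every list was 4.00. With 1 more input tag, 21 of the 44 Tet peaks would have had a fold under 4: 7, 2, 8 and 4 in the order of the lists. Over all peaks this share was 44.5% in wild-type DMSO, 30.8% in wild-type talazoparib, 28.1% in Tdg-depleted DMSO and 41.4% in Tdg-depleted talazoparib. Whether a Tet region is on a list can thus turn on a single input tag.

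**Figure D3:**
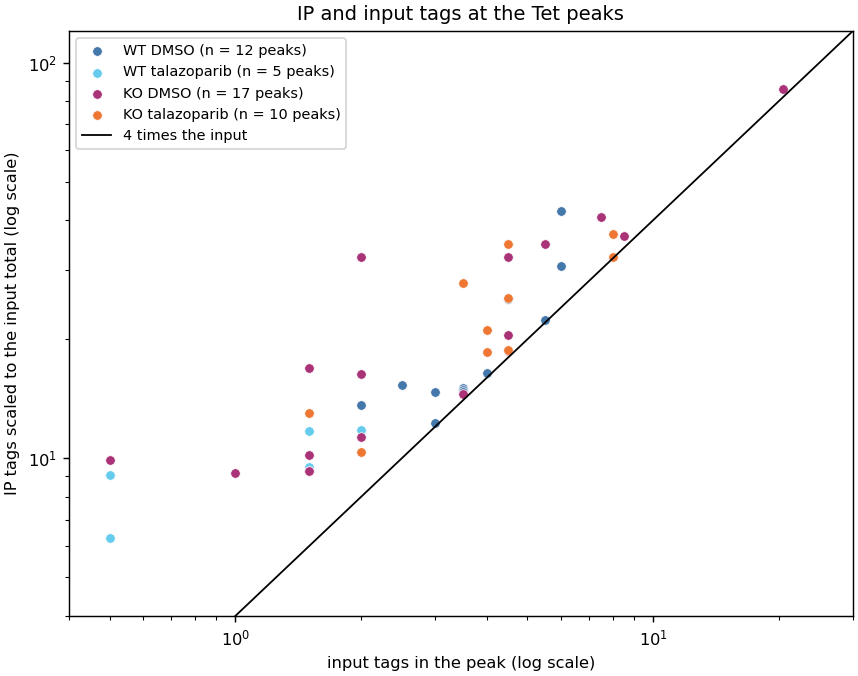
IP tags scaled to the input total against input tags for the 44 Tet peaks, both on log axes, coloured by list. The line marks 4 times the input, and all peaks lie on or above it, many with fewer than 3 input tags.

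Most Tet peaks lay toward the 5′ end of the gene, as did most peaks of genes of similar length. Of the 44, 30 lay in the gene's 5′-most tertile or its upstream flank: 9 of 12, 4 of 5, 11 of 17 and 6 of 10 by list. In the 75 to 150 kb class the share was 56.3% of 16689 peaks, with 55.5%, 62.5%, 54.2% and 56.5% by list. Within 1 kb of an annotated start of the same gene lay 15 of the 44, namely 7 of 24 at Tet1, 4 of 13 at Tet2 and 4 of 7 at Tet3. By the feature at the peak centre, 39 peaks lay in an intron. This class includes peaks beside a start that lies inside the gene. The Tdg-depleted DMSO peak of Tet3 region 3, for example, is centred 0.062 kb upstream of the start of Tet3-201.

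The median Tet peak held fewer CpG dinucleotides than the median of all peaks in each list. The Tet median was 1.2 CpG per 100 bp over the 44, and 1.16, 1.00, 1.14 and 1.64 by list, beside 2.00, 3.18, 2.09 and 2.40 for all peaks. The windows of the genes themselves held 1.15 at Tet1, 0.949 at Tet2 and 1.53 at Tet3, and the median peak held 1.07 at Tet1, 1.12 at Tet2 and 4.8 at Tet3. The median peak of Tet1 and of Tet2 was thus close to the mean of its window, and the median Tet3 peak was higher. A median over peaks and a mean over all bases of a window are unlike measures. The medians also leave out of view the CpG-dense peaks, with values up to 6.32 at Tet1 and 12.2 at Tet2. The soft-masked repeat share of the median peak was 32.1% at Tet1, 5.12% at Tet2 and 12.2% at Tet3.

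**Figure D4:**
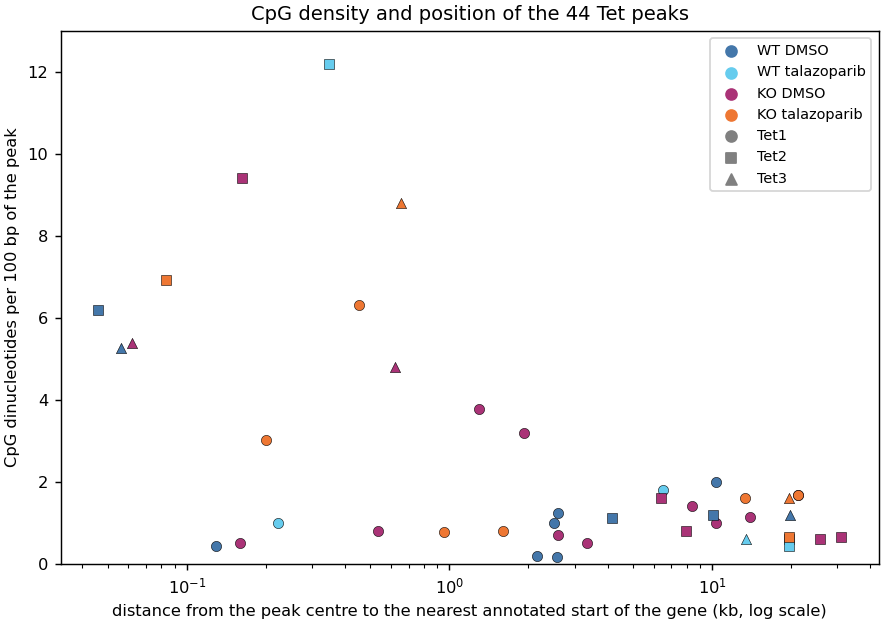
CpG dinucleotides per 100 bp of each of the 44 Tet peaks against the distance in kb (log axis) from the peak centre to the nearest annotated start of the gene, coloured by list and shaped by gene. Values of 4 or more occur only among peaks within 1 kb of a start, up to 12.2 at Tet2; most peaks lie below 2.

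The RefSeq promoter table (GRCm38.p6, 300 bases at each start) holds all 3 genes. The Tet1 promoter (chr10:62887275-62887574) was overlapped by both Tdg-depleted peaks of region 7, the Tet2 promoter (chr3:133544341-133544640) by the wild-type talazoparib and Tdg-depleted DMSO peaks of region 1, and the Tet3 promoter (chr6:83441629-83441928) by both DMSO peaks of region 3. They hold 5.67, 19 and 7.33 CpG per 100 bp, beside a median of 2.33 over 32817 promoters. The GC box GGGCGG, searched on both strands, occurs 1 time at Tet1, 1 time at Tet2 and 2 times at Tet3, and 35.6% of all promoters hold it. The octamer ATGCAAAT occurs in none of the Tet promoters, and 1.74% of all promoters hold it. A match is only a run of letters in this window.

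Of 30 other genes of DNA methylation and demethylation, 24 had a peak in wild-type DMSO, 17 in wild-type talazoparib, 26 in Tdg-depleted DMSO and 24 in Tdg-depleted talazoparib, where the shares over all protein-coding genes were those given above (60.9%, 48.8%, 66.7% and 58.9%). A peak in all 4 lists was found at 14 of the 30, beside 39.0% of all protein-coding genes. In wild type 16 of the 30 had more peaks in DMSO than in talazoparib and 1 had fewer, beside 36.7% and 9.34% of all genes. In Tdg-depleted cells 15 had more and 1 had fewer, beside 35.5% and 11.0%. The lean towards DMSO was thus shared with genes at large, as was the fall in all peaks to ratios of 0.544 and 0.676. Tdg itself, whose glycosylase removes the oxidised bases, had 1, 0, 2 and 0 peaks, which do not check the genotype, since a peak count is no measure of the gene's expression.

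Among the DNA methyltransferases and their partners, Dnmt3a, a de novo enzyme, had 5, 0, 7 and 4 peaks. Dnmt3b, the other de novo enzyme, had 2 in every list. Dnmt3l, their catalytically inactive cofactor, had 2, 1, 4 and 3. Dnmt1, the maintenance enzyme, had 1, 1, 4 and 1, its partner Uhrf1 had 3, 2, 4 and 3, and the remodeller Hells had 1, 1, 2 and 1. By number alone none of the 30 reached the 10 peaks of Tet1 in Tdg-depleted DMSO, but most of their windows are shorter. Per 100 kb of window, 14, 15, 12 and 11 of the 30 exceeded Tet1 in the order of the lists, among them Ung with 26.4 in Tdg-depleted DMSO beside 8.74 for Tet1.

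Genes are named here only for at least 4 peaks in a list or a peak in all 4 lists. Others, glycosylases with few or no peaks among them, are left out. Among the named glycosylases, which cut out damaged or modified bases, Ung had 4, 2, 5 and 2 peaks and Smug1 had 4, 0, 4 and 2. Mbd4 had 3, 2, 2 and 1, and Neil2 had 2, 2, 2 and 1. Of the later repair steps, Apex1, the abasic endonuclease, had 2 in every list, Lig3, a ligase, had 1 in every list, and Parp1, the main target of talazoparib, had 2, 1, 2 and 2. Idh1 and Idh2, which make 2-oxoglutarate, had 2 in every list and 5, 1, 4 and 3. Gadd45b, a stress gene linked to demethylation, had 3, 1, 3 and 3, and Cxxc5, a CXXC-domain gene, had 4, 0, 4 and 4.

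**Figure D5:**
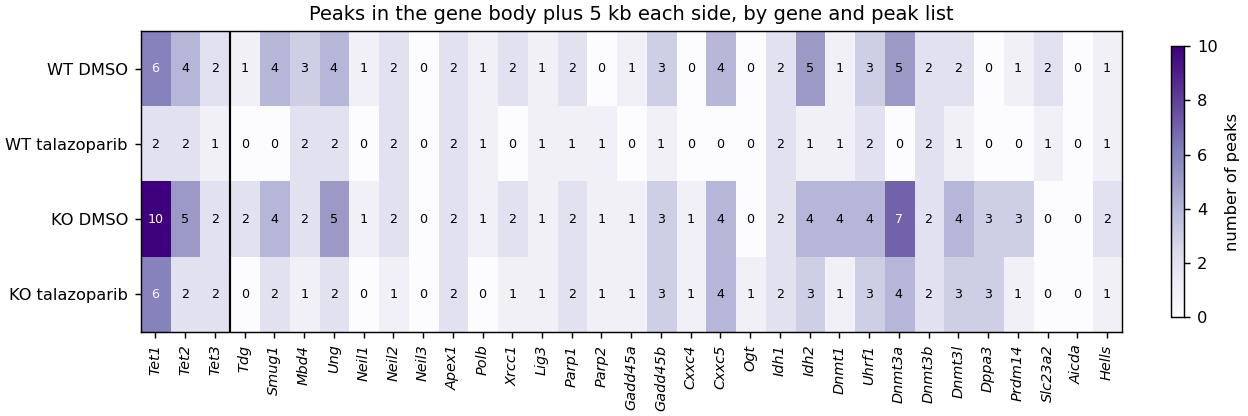
Number of peaks in the gene body plus 5 kb each side for the 3 Tet genes (left of the line) and 30 other methylation and demethylation genes, by list. Counts are not scaled for gene length; Tet1 has the highest count, 10 in Tdg-depleted DMSO.

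The genes most like each Tet gene were sought by the distance between log2 summed normalized tag counts plus 1 over the 4 lists. The summed count of Tet1 was 31.3, 8.71, 112 and 49.9, and its nearest gene was Fscn1 (distance 0.34), with 30.7, 7.93, 117 and 40.1, followed by Ssr2 (0.40) and Reep3 (0.45). Tet2 had 16.1, 8.47, 34.1 and 20.4, and was nearest to Tex19.1 (0.15), Hsf2 (0.15) and Bcl7a (0.17). Tet3 had 14.8, 2.57, 18.8 and 14.1, and was nearest to Cwf19l1 (0.32), Cacfd1 (0.32) and Larp1 (0.40). The likeness is over 4 pooled lists only and is a description of these sums.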

How the data were processed

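Peak tables, 1 per condition, were deposited with the column names of HOMER findPeaks, per the file headers. The mm10 build is named in the submitters' processing notes, as are HOMER 4.11, Bowtie2 2.3.4.2, R 3.6 and Picard 2.9.2, without their roles or settings. The authors pooled the IP libraries of a condition into 1 value per peak. The deposited normalized tag count is an IP signal per 10000000 tags, and the deposited input column is a signal in tags, in steps of 0.5. A further deposited column, of another unit, gives IP tags rescaled by the authors to input depth, and the authors' fold is the ratio of that column to input tags. The deposited p-value was not used to choose peaks, and the authors' score served only to rank peaks within a list.

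IP totals were recovered from the steps of the low normalized tag counts, input totals from the scaled column. Peaks were joined to GENCODE M21 genes by at least 1 bp, and regions merged where peaks overlapped. Density is tags per bp over the mean of the same IP across 2648 Mb of sequenced bases. Intervals use the exact Poisson formula at 95%, applied to tag counts in steps of 0.5, and were not themselves tested on simulated data. Peak overlap, region merging and the recovery of the IP total were tested on simulated data. Peak positions are the deposited ones, and since the tables do not state their counting base, starts may be off by 1 base. Printed sequences take the deposited starts as counted from 0 and give positions counted from 1. The work used Python 3.11.15, pandas 2.3.3, numpy 2.4.6 and scipy 1.17.1. The members and the gene lists were chosen with earlier results of these data known. Of the 30 other genes, Tdg and those with at least 4 peaks in a list or a peak in all 4 lists were named, with the 3 genes most alike for each Tet gene. The printed sequence of Tet2 region 5 was added after its values were seen, and 1 further Tet1 sequence is not reported here. Alternatives changed the window, the fold, input tags, density, list length and the overlap rule.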

Additional observations from a re-analysis of the deposited data

Results flagged for a closer look

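Tet3 region 5 was on the DMSO list and not the talazoparib list in wild type, and the reverse in Tdg-depleted cells. It was the 1 Tet region of 30 with this combination of lists, which 2.46% of merged regions genome-wide had too. Its normalized tag count was 3.85 in wild-type DMSO and 7.45 in Tdg-depleted talazoparib, where the medians over all peaks of those lists were 4.83 and 7.45. The difference was not tested, since each list holds 1 pooled value, and the other 2 conditions have no value there.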

How the results depend on the processing

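Counts over the 3 genes are given in the order wild-type DMSO, wild-type talazoparib, Tdg-depleted DMSO, Tdg-depleted talazoparib, then merged regions and regions in all 4 lists. They were 12, 5, 17, 10, 30 and 1. Of 50 values under the alternatives, 30 stayed within 1.5 times these, among them every value for the gene body alone, 10 kb flanks, peak centres and 50% overlap. Within 2 kb of a start the counts were 4, 2, 8 and 6 peaks in 12 regions. At a fold of at least 6, 3 peaks remained in wild-type DMSO, 10 in Tdg-depleted DMSO and 3 in Tdg-depleted talazoparib, in 17 regions, 0 of them in all 4 lists. With at least 3 input tags, wild-type talazoparib kept 0 and Tdg-depleted DMSO 8, in 18 regions, 0 of them in all 4 lists. At a density of at least 2, wild type had 5 in DMSO and 3 in talazoparib. With equal numbers of best-scoring peaks, both DMSO lists had 5, in 16 regions, 0 of them in all 4 lists. These alternatives count fewer peaks by construction. For single genes 32 of 96 values moved by more than 1.5 times. No paired analysis was possible because the lists hold no value per library. Low input depth limits the fold, and pooled lists leave the spread between cultures unknown.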
